A study of Mus musculus with 12 samples.

Results

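The 46 genes described here encode the machinery that carries proteins between the endoplasmic reticulum (ER) and the Golgi apparatus, and they were read in B cells of intestinal Peyer's patches (PP) after experimental stroke. The genes were picked by name from a table of 36175 genes, with earlier results of these data known. They comprise 10 genes of the COPI coat, 11 of the COPII coat, 13 cargo receptors and p24 proteins, 5 Golgi matrix proteins and tethers, and 7 SNAREs. All 46 reached a signal of 1 in all 12 mice and so entered the test, as did 12590 genes of the table in all.

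Bulk RNA-seq was available for 6 sham controls and 6 stroke mice, labelled Sham and Brain injury, with 1 library for each mouse. All were male wild-type mice of the strain C57BL/6JHsd aged 10 to 12 weeks, taken 18 h after surgery. Stroke was induced by blocking the middle cerebral artery for 1 h, and sham controls had the same operation with the filament withdrawn at once from the carotid artery. Both groups received buprenorphine before and carprofen after surgery. B cells were enriched with a magnetic kit, which by the methods leaves small amounts of epithelial cells of the gut and of endothelial cells. CD45 beads then enriched the B cells further, and the methods state that nearly all cells were B cells after this step. The comparison asks how the transcripts of PP B cells differed after brain injury.

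Secretory proteins leave the ER in vesicles coated with COPII, and escaped ER residents and cargo receptors return from the Golgi in vesicles coated with COPI. Transmembrane receptors load the vesicles, tethers and golgins catch them, and SNAREs fuse them with the target membrane. Cells that secrete antibody depend heavily on this route, and plasma cells enlarge it when the unfolded protein response is active.

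The values are an expression signal labelled as normalized TPM, a unit in which reads are divided by transcript length, so levels can be set beside each other between genes. Column totals ran from 559570 in sham mouse 6 to 1404340 in sham mouse 1, and the read depth is unknown. Sham mouse 6 and sham mice 1 and 2 stood apart from the other sham controls. The summed signal of 10 intestinal epithelial markers was 1741 and 1640 in sham mice 1 and 2, from 227 to 507 in sham mice 3 to 5, and 50.8 in sham mouse 6. In stroke mice it ranged from 60.7 to 771. The B cell label held, as 8 B cell markers summed to between 1587 and 3207 in every mouse, whereas 8 T cell markers summed to between 70.6 and 174. The 8 myeloid markers summed to between 25.9 and 275, of which Lyz2 made up 16.4 to 247 and the neutrophil genes S100a8, S100a9 and Ly6g at most 1.44 each. Of 6 endothelial markers, Pecam1 was between 77.1 and 105, whereas Cdh5, Kdr, Tek, Emcn and Egfl7 reached at most 4.34. In such bulk samples, fewer cells of a type and less RNA per cell cannot be told apart.

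Promoter sequence is shown because factors of the unfolded protein response are known to act on genes of this route. A script searched RefSeq promoter windows (build GRCm38.p6, from 250 bases before to 50 after each start site) on both strands, and 40 of the 46 genes had a window. The letters TGACGTGG, known as a UPR element that factors of the unfolded protein response can bind, occurred in the windows of 7 of the 40 genes (17.5%). They occurred in 0.714% of 27025 genes with such windows and in 0.962% of 9146 such genes that were tested for expression. The 7 genes encode 3 COPI coat components or their GTPase (Copb1, Copb2, Arf1), the activator of that GTPase (Gbf1), 2 COPII coat proteins (Sec23a, Sec24d) and a SNARE (Stx5a). Their matches are printed on the gene's own strand with 10 bases on each side where the window allows, and the capitals mark TGACGTGG or its other-strand reading CCACGTCA.
Arf1, chr11:59228229-59228256, minus strand: cggcaggcgcTGACGTGGctgccgtcag
Copb1, chr7:114254691-114254718, minus strand: ccgcccccttCCACGTCAgccaaggact
Copb2, chr9:98563714-98563741, plus strand: cccggaagttCCACGTCAgtgggttggc
Gbf1, chr19:46152536-46152563, plus strand: aggctagttaCCACGTCAgtgagctgac
Sec23a, chr12:59011994-59012021, minus strand: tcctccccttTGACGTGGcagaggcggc
Sec24d, chr3:123267460-123267487, plus strand: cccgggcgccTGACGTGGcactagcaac
Stx5a, first match, chr19:8741423-8741450, plus strand: ggcgcagcagCCACGTCAccgagttagg
Stx5a, second match, chr19:8741453-8741473, plus strand: tacgtctaggTGACGTGGcgg
These matches lie close to the start sites. The last base of the match was 21 bases before the start in Copb1, 5 before it in Gbf1 and 19 before it in Sec24d, and the Copb2 match ended at the first transcribed base. In Sec23a and Stx5a the matches lay within the transcribed bases, and the Arf1 match did so for 1 of the 2 start sites of that gene. The full ER stress element, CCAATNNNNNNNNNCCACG, was in 0 of the 40 genes' windows and in 0.142% of tested genes, so these letters were rare everywhere. Its part CCACG was in 31 of the 40 (77.5%) against 51.2% of tested genes, and the core ACGT in 28 (70.0%) against 45.0%. Both short motifs are contained in the UPR element or its other strand. A match is a description of sequence and was not tested for binding here.

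PP B cells of all 12 mice carried transcripts for every member, and none was listed at 0 in any mouse. The middle member had a mean signal of 39.3 over the 12 mice. The 3 genes that averaged above 100 were Tmed2, a p24 protein that cycles between ER and Golgi (137), Use1, a SNARE of retrograde fusion at the ER (115), and Arf1, the GTPase that recruits COPI (106). At the other end, 8 genes averaged under 20, the lowest being Gorasp1 at 4.88, which encodes the Golgi stacking protein GRASP65.

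**Figure D1:**
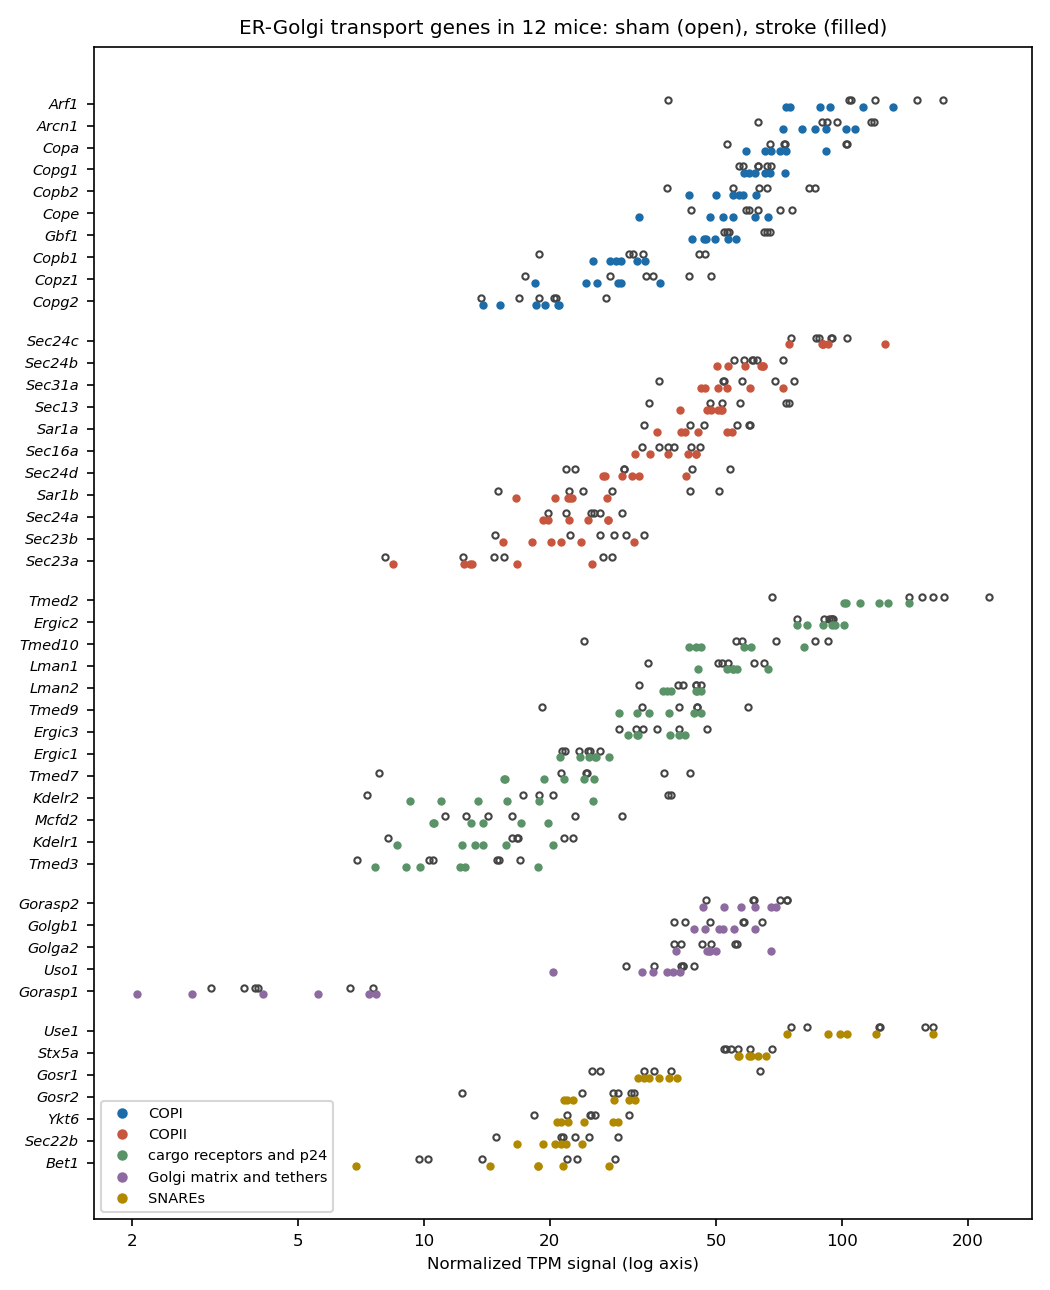
Each point is the normalized TPM signal of a transport gene in 1 mouse, on a log axis, with sham controls open and stroke mice filled and genes ordered by mean level within each role. The open and filled points overlap for every gene, and sham mouse 6 forms the lone low open point of Arf1 and Tmed2.

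The coatomer subunits are thought to assemble in equal numbers, and their signals fell in a band. On the length-scaled signal, the delta subunit Arcn1 was highest at 93.2, and the sum of the gamma subunits Copg1 and Copg2 was 82.3. The alpha subunit Copa was at 75.0, the beta-prime subunit Copb2 at 59.8, the epsilon subunit Cope at 57.4, the beta subunit Copb1 at 32.1 and the zeta subunit Copz1 at 30.9. The order within gene families was nearly the same in every mouse. Copg1 exceeded Copg2 in 12 of 12 mice, by 3.33 ± 0.867-fold in sham controls and 3.66 ± 0.835-fold in stroke mice (SD, n = 6 each). Sec23b exceeded Sec23a in 12 of 12 mice, and Sar1a exceeded Sar1b in 11 of 12. Of the Sec24 genes, which select cargo for COPII, Sec24c lay above Sec24b and Sec24b above Sec24d in all 12 mice, with Sec24d above Sec24a in 11. Gorasp2, which encodes the second stacking protein GRASP55, exceeded Gorasp1 14.6 ± 4.40-fold in sham controls and 15.1 ± 8.78-fold in stroke mice. The ERGIC genes kept the order Ergic2, Ergic3, Ergic1 in 12 of 12 mice. The lectin Lman1 exceeded Lman2 in 12 of 12 mice, and the KDEL receptor Kdelr2 exceeded Kdelr1 in 10. Reads shared by related copies were assigned by pseudo-alignment, so these ratios carry that uncertainty.

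Between stroke mice and sham controls, the transport genes differed little beyond the spread between mice. Of the 46 genes, 0 were higher and 1 was lower in stroke mice at an unadjusted p under 0.05 (limma), and 0 passed after Benjamini-Hochberg adjustment over all genes tested. Among all genes tested, 4.42% were higher and 1.69% lower at that threshold, so the share of lower members, 2.17%, was near the background. The adjusted p (limma) of the members was 0.791 or more, and 0 of the 12590 genes had an adjusted p under 0.05. The values of the groups overlapped for all 46 genes, while 0.437% of the genes tested had groups without overlap. The fold changes nevertheless leaned downward. The log2 fold change of stroke over sham was negative for 35 of 46 members (76.1%) against 48.6% of all genes, with a median of -0.09 against 0.01. Without sham mouse 6, 40 members were negative and the median was -0.21 against -0.02 for all genes. With sham mice 1 and 2 left out, 16 members were negative and 24 lay below the all-gene median. This sign depended on scale. When every column was brought to the same total, the median of all genes moved to 0.12 and that of the members to 0.03, and 27 members were positive. Relative to the all-gene median, 36 members lay below it on the deposited scale and 34 with equal totals.

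**Figure D2:**
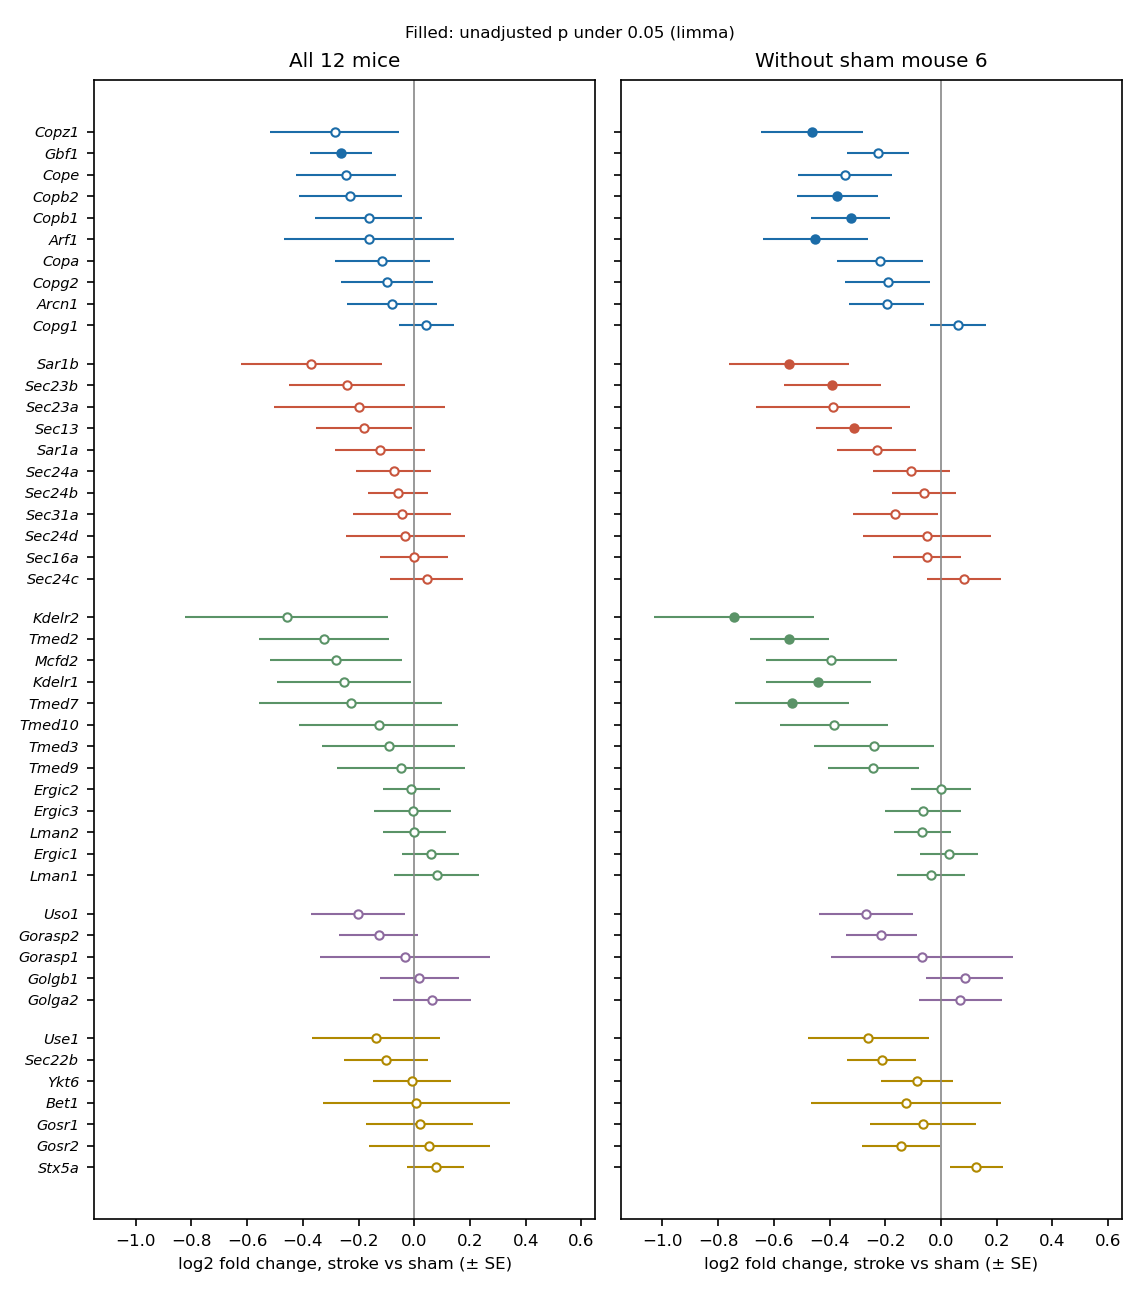
The log2 fold change of stroke over sham with its SE is drawn for each gene, coloured by role, over all 12 mice (left) and without sham mouse 6 (right), and filled points had an unadjusted p under 0.05 (limma). Only Gbf1 is filled on the left, whereas 11 other genes are filled on the right.

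Among the COPI genes, 9 of 10 had a negative fold change, with a median of -0.16 on the log2 scale. Gbf1 encodes the exchange factor that activates ARF1 at the early Golgi, and it was the 1 member that passed at an unadjusted p. It lies on chr19:46152509-46286510 (plus strand, GRCm38). Its signal was 53.7, 52.4, 64.9, 53.0, 66.3 and 67.2 in sham mice 1 to 6 and 49.7, 47.3, 46.7, 55.8, 43.8 and 53.4 in stroke mice 1 to 6. All 6 stroke mice were below the sham mean, but stroke mouse 4 was above sham mice 1, 2 and 4. The means were 59.6 ± 7.25 and 49.5 ± 4.46 (SD, n = 6 each). Stroke mice differed from sham controls by a log2 fold change of -0.26 with an SE of 0.11 and an adjusted p of 0.791 (limma). The unadjusted p of 0.0353 did not hold under several other treatments of the data, among them equal totals, where it was 0.600, and leaving out any 1 of sham mice 3, 5 and 6 or of stroke mice 1, 2, 3 and 5. Unlike most members, Gbf1 was highest in sham mouse 6.

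Copb2 and Cope, both coatomer subunits, were next in the COPI group. Copb2 (chr9:98563721-98588382) ranged from 38.2 through a median of 64.7 to 86.1 in sham controls and from 42.9 through 55.8 to 62.2 in stroke mice. The log2 fold change was -0.23 (SE 0.18, adjusted p = 0.831, limma). It was -0.37 without sham mouse 6, -0.14 without sham mouse 2 and -0.0173 with sham mice 1 and 2 left out. Cope (chr8:70302518-70312993) ranged from 43.4 through 61.4 to 76.2 in sham controls and from 32.8 through 53.4 to 66.6 in stroke mice. The corresponding log2 fold change was -0.25 (SE 0.18, adjusted p = 0.817, limma). Without stroke mouse 5 the value of Cope was -0.12. For Copb2 the stroke range lay wholly within the sham range, and for Cope the ranges overlapped between 43.4 and 66.6. Copz1 had the most negative log2 fold change of the COPI genes, -0.29 with an SE of 0.23, which was -0.46 without sham mouse 6 and -0.0455 with sham mice 1 and 2 left out. Copg1 was the 1 COPI gene with a positive value, 0.04, and it varied only 1.19-fold between sham controls, whereas Arf1 varied 4.54-fold, or 1.67-fold between sham mice 1 to 5.

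Among the COPII genes, 10 of 11 had a negative fold change, with a median of -0.07, and 0 passed at an unadjusted p. Sar1b encodes a GTPase that starts coat assembly at ER exit sites. Sar1b (chr11:51763687-51791925) was 43.3, 50.7, 24, 22.2, 28.2 and 15 in sham mice 1 to 6 and 27.5, 22.6, 16.6, 22.1, 20.6 and 22.3 in stroke mice 1 to 6. Sham mice 1 and 2 were above every other mouse and sham mouse 6 was below every other mouse, and the stroke mice lay between. This gave a log2 fold change of -0.37 (SE 0.25, adjusted p = 0.814, limma), which was -0.20 without sham mouse 2 and -0.00777 with sham mice 1 and 2 left out. Sec23b, part of the inner COPII coat (chr2:144556229-144590749), ranged from 14.8 through 27.5 to 33.5 in sham controls and from 15.5 through 20.7 to 31.8 in stroke mice. The log2 fold change was -0.24 (SE 0.21, adjusted p = 0.839, limma). With 1 mouse left out it ranged from -0.39 without sham mouse 6 to -0.15 without stroke mouse 5. It was -0.0724 with sham mice 1 and 2 left out and -0.116 with equal totals. The scaffold of the exit sites, Sec16a, had almost equal means of 39.5 ± 4.61 and 39.6 ± 5.43 (SD, n = 6 each). Sec24c was the 1 positive gene of the group, with a log2 fold change of 0.04 (SE 0.13). The outer coat genes Sec13 and Sec31a had log2 fold changes of -0.18 (SE 0.17) and -0.04 (SE 0.18), which were -0.31 and -0.16 without sham mouse 6. Sec13 was at -0.0922 without sham mouse 2 and at 0.0357 with sham mice 1 and 2 left out.

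Of the cargo receptors, 10 of 13 had a negative fold change, with a median of -0.09, and Kdelr2 had the most negative value of all 46 genes. Kdelr2 encodes a receptor that returns ER residents carrying a KDEL tail. Kdelr2 (chr5:143403838-143421901) was 38.3, 39.0, 18.8, 17.3, 20.4 and 7.32 in sham mice 1 to 6 and 25.4, 15.8, 18.9, 13.5, 9.28 and 11 in stroke mice 1 to 6. Sham mice 1 and 2 were again highest and sham mouse 6 lowest of all 12. The difference was -0.46 on the log2 scale (SE 0.36, adjusted p = 0.827, limma), -0.275 without sham mouse 2 and -0.00805 with sham mice 1 and 2 left out. Tmed2 (chr5:124540695-124550506) was 155, 225, 165, 176, 145 and 68.2 in sham mice 1 to 6 and 144, 111, 123, 101, 102.03 and 129 in stroke mice 1 to 6. Sham mice 1 to 5 were above all stroke mice and sham mouse 6 was below all of them. Its log2 fold change was -0.32 with an SE of 0.23 (adjusted p = 0.815, limma). It was -0.54 without sham mouse 6, -0.20 without sham mouse 2 and -0.15 with sham mice 1 and 2 left out. The other p24 genes Tmed3, Tmed7, Tmed9 and Tmed10 had log2 fold changes from -0.23 in Tmed7 to -0.05 in Tmed9. Without sham mouse 6 Tmed7 was at -0.53 and Tmed9 at -0.24, and with sham mice 1 and 2 left out Tmed7 was at 0.157. Exons of Tmed7 overlap those of Ticam2 on the same strand, so its reads may be shared.

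LMAN1 and MCFD2 together carry certain glycoproteins out of the ER. Lman1 had a log2 fold change of 0.08 (SE 0.15), the highest of the group, and Mcfd2 one of -0.28 (SE 0.24). Without sham mouse 6 the value of Lman1 was -0.04 (SE 0.12) and that of Mcfd2 -0.39 (SE 0.23), and the difference between the genes was not tested. The lectin Lman2 was even between groups, at 41.7 ± 4.86 in sham controls and 41.6 ± 3.93 in stroke mice (SD, n = 6 each). The 3 ERGIC genes, whose products mark the compartment between ER and Golgi, had log2 fold changes of 0.06 (Ergic1), -0.01 (Ergic2) and -0.01 (Ergic3), each with an SE of at most 0.14.

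Of the 5 Golgi matrix genes, 3 had a negative fold change, with a median of -0.03. Uso1 encodes the vesicle tether p115. Uso1 (chr5:92137938-92202798) ranged from 30.5 through 41.5 to 44.3 in sham controls and from 20.3 through 36.7 to 41.0 in stroke mice. The low end of the stroke group was stroke mouse 5 alone, and the other 5 stroke mice were between 33.3 and 41.0. On the log2 scale the fold change was -0.20 (SE 0.17, adjusted p = 0.836, limma), and without stroke mouse 5 it was -0.06. Gorasp2 (chr2:70661576-70712636) ranged from 47.3 through 66.3 to 74.0 and from 46.6 through 59.6 to 69.6, with a log2 fold change of -0.13 (SE 0.14, adjusted p = 0.871, limma), which was -0.06 without stroke mouse 3 and -0.21 without sham mouse 6. The golgins Golga2 (GM130) and Golgb1 (giantin) had log2 fold changes of 0.06 (SE 0.14) and 0.02 (SE 0.14).

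The fold changes of the SNAREs were centred near 0, with 3 of 7 negative and a median of 0.01, but without sham mouse 6 the median was -0.13 and 6 of 7 were negative. Stx5a encodes the Golgi SNARE that pairs with the products of Gosr1, Gosr2, Bet1, Ykt6 and Sec22b. Stx5a (chr19:8741413-8756069) ranged from 52.2 through 55.3 to 68.1 in sham controls and from 56.3 through 60.2 to 65.8 in stroke mice. Its difference between the groups was 0.08 on the log2 scale (SE 0.10, adjusted p = 0.882, limma). It was 0.127 without sham mouse 6, 0.0264 with sham mice 1 and 2 left out and 0.202 with equal totals. Sec22b (chr3:97901190-97923276) ranged from 14.9 through 22.2 to 29.2 and from 16.7 through 21.0 to 23.9, with a log2 fold change of -0.10 (SE 0.15, adjusted p = 0.896, limma), which was -0.02 without sham mouse 2 and -0.21 without sham mouse 6. Gosr1, Gosr2, Bet1 and Ykt6 had log2 fold changes between -0.01 and 0.05, and Use1 one of -0.14 (SE 0.23). Without sham mouse 6 these were -0.06 for Gosr1, -0.14 for Gosr2, -0.13 for Bet1, -0.09 for Ykt6 and -0.26 for Use1. Bet1 varied most, from 9.72 to 28.6 in sham controls and from 6.87 to 27.6 in stroke mice.

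The spread between mice of 1 group was larger than the difference between the groups, and much of it was shared by the genes. The mean of the 46 genes, on the log2 scale relative to each gene's mean over all mice, was 0.33, 0.38, 0.10, 0.00, -0.02 and -0.47 in sham mice 1 to 6. It was 0.21, -0.02, -0.00, -0.14, -0.23 and -0.13 in stroke mice 1 to 6. Sham mouse 6 had the lowest value of all 12 mice for 26 of the 46 genes (56.5%) and for 27.2% of all genes tested. Sham mice 1 and 2 held the 2 highest places for 17 members, and the share over all genes was not counted. The genes tested as a whole also varied between mice on this scale. With their mean subtracted in each mouse, the members stood at 0.24, 0.27, 0.12, 0.02, -0.03 and -0.26 in sham mice 1 to 6 and at 0.13, -0.02, -0.03, -0.10, -0.16 and -0.18 in stroke mice 1 to 6. As a share of the column total the order was different, since sham mouse 6, which had the smallest total, had the largest share at 0.285% and sham mouse 1 the smallest at 0.187%. The spread was over 2-fold between sham controls for 23 members and between stroke mice for 10. Between sham mice 1 to 5 alone it was over 2-fold for 9 members. On the log2 scale the sham range was wider than the stroke range for 34 of 46 members and for 59.0% of all genes tested.

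**Figure D3:**
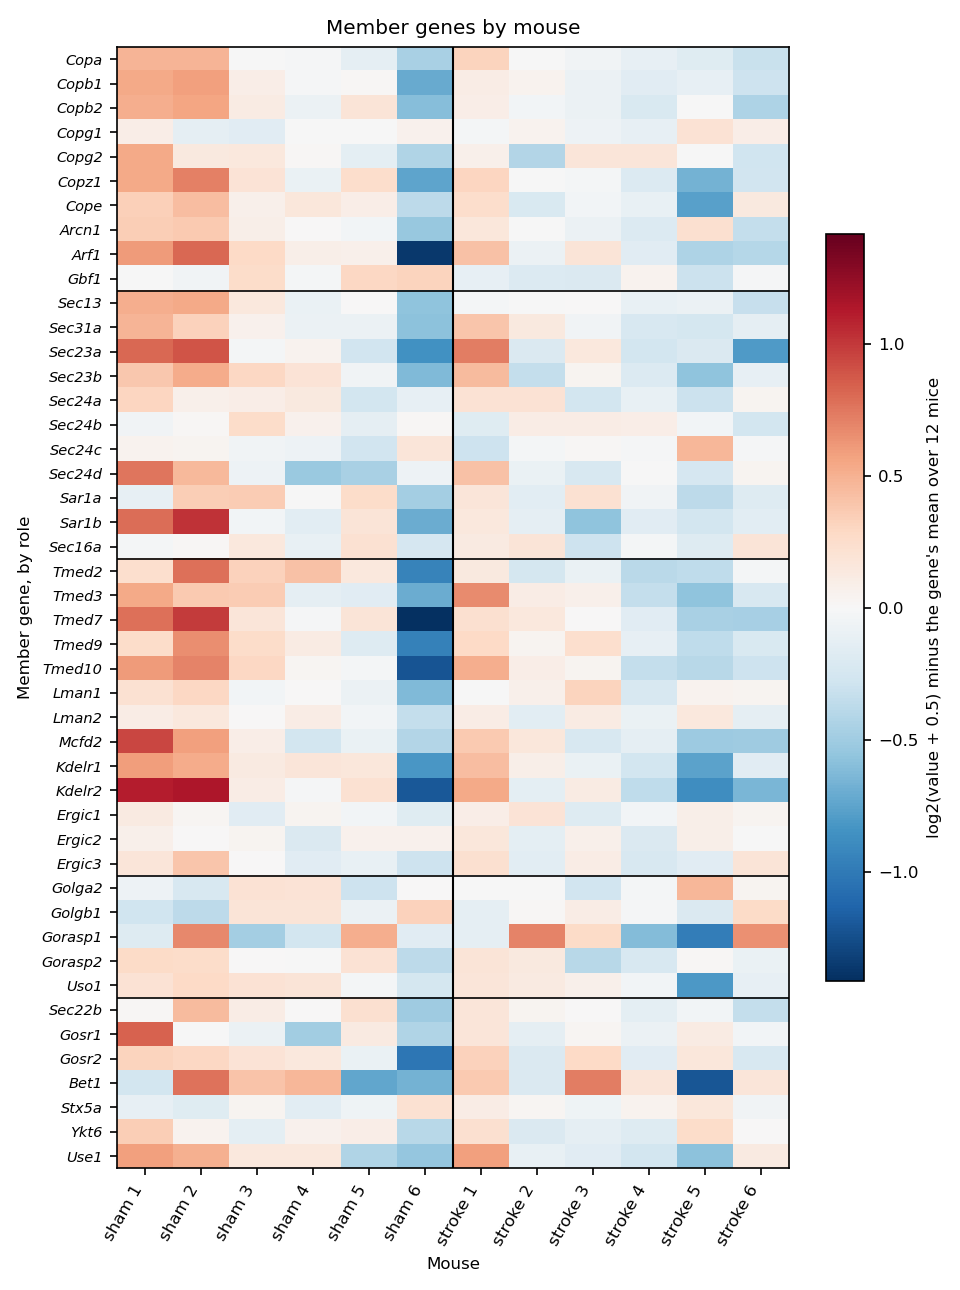
Colour gives each gene's log2(value + 0.5) in each mouse minus the gene's mean over the 12 mice, with genes in rows by role and mice in columns. The COPI, COPII and cargo receptor rows are mostly red in sham mice 1 and 2 and blue in sham mouse 6, whereas Gbf1, Golgb1 and Stx5a do not follow.

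The shared variation was strongest in the cargo receptors. After each group's mean was removed, the median correlation over the 1035 pairs of members was 0.477 across the 12 mice, as a description in which all points share the same libraries. The mean of all genes tested also varied, from -0.208 in sham mouse 6 to 0.108 in sham mouse 2. Pairs of other genes were not computed, so how far 0.477 is particular to the members was not tested. Within roles the median was 0.731 for cargo receptors, 0.646 for COPI, 0.426 for SNAREs, 0.410 for COPII and 0.00715 for the Golgi matrix genes. Kdelr2 and Arf1 followed the others most closely, with median correlations of 0.771 and 0.766. Golgb1, Stx5a and Gbf1 ran the other way, at -0.546, -0.513 and -0.381. Of the 7 genes with a UPR element in their window, 5 had a positive median correlation with the others and the remaining 2, Stx5a and Gbf1, a negative one, beside 39 positive of all 46 members.

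Other gene groups varied along with the transport genes between mice. The summed signal of 16 ER chaperone and stress genes, such as Hspa5 (BiP), was 2928, 3288, 2876, 2459, 2146 and 1081 in sham mice 1 to 6 and 2425, 2126, 2022, 1620, 1154 and 1862 in stroke mice 1 to 6. These genes had a median log2 fold change of -0.36, 14 of 16 negative, and 0 passed at an unadjusted p (limma). Of 12 plasma cell markers, the sum ran from 417 in sham mouse 6 to 1690 in sham mouse 1 and from 508 to 1279 in stroke mice. All 7 of the 10 epithelial markers that were tested had negative fold changes, 0 of them at an unadjusted p under 0.05, and none of the 10 was at 0 in any mouse. The 8 myeloid markers summed to 275 and 182 in sham mice 1 and 2, to between 80.4 and 98.5 in sham mice 3 to 5, to 25.9 in sham mouse 6 and to between 36.3 and 146 in stroke mice. Of the B cell markers, Cr2 and Fcer2a were lower in stroke mice at an unadjusted p under 0.05 (limma). The part of these groups in the transport genes' values was not tested.

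**Figure D4:**
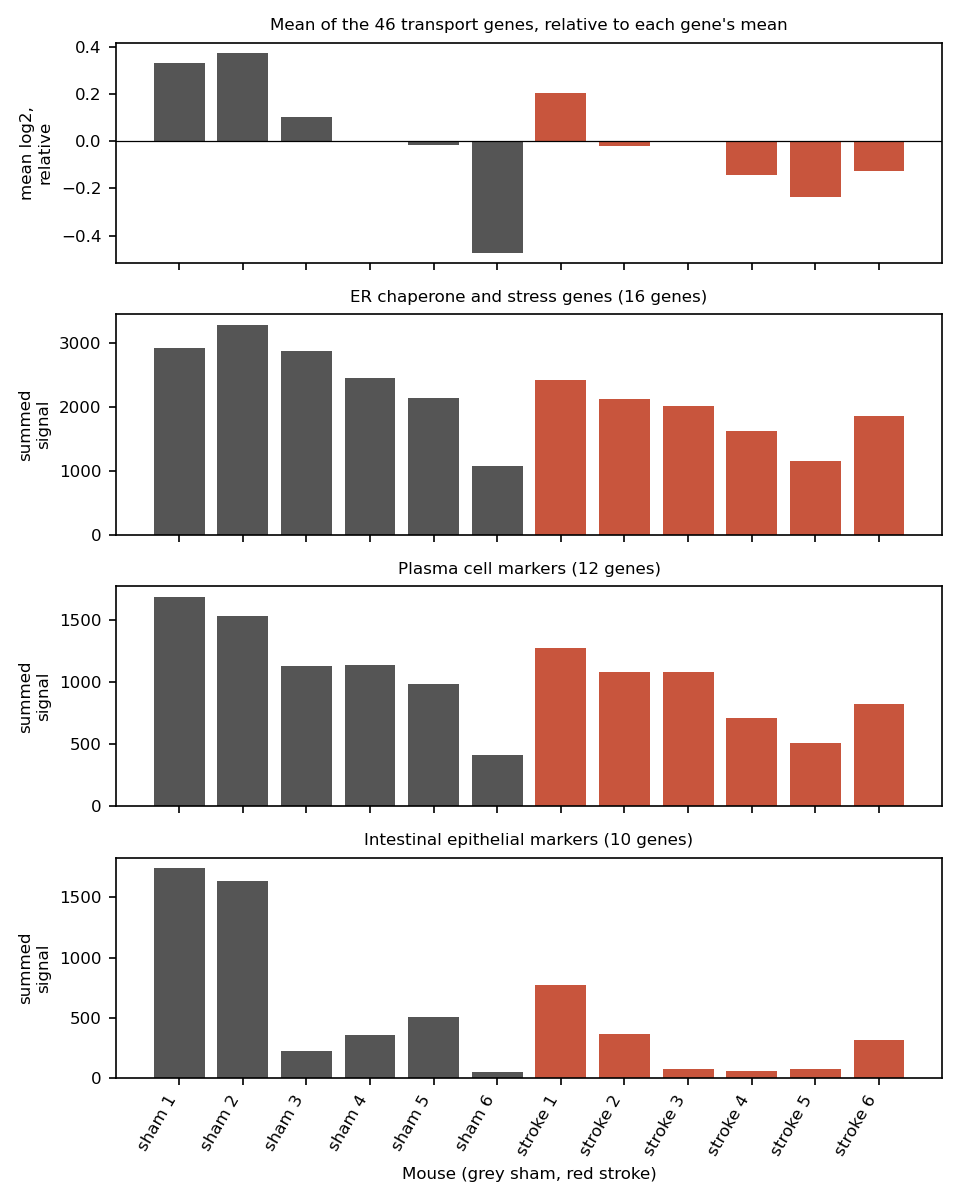
Bars give, for each mouse, the mean of the 46 transport genes on the relative log2 scale (top) and the summed signal of the ER chaperone and stress genes, plasma cell markers and intestinal epithelial markers. Sham mouse 6 is lowest in all 4 panels, and sham mice 1 and 2 are highest in all 4.

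Sham mouse 6 decided how many genes were called. Without it, 11 of 46 members (23.9%) were lower in stroke mice at an unadjusted p under 0.05 and 0 were higher, against 9.18% lower and 7.39% higher of 12661 genes. The lowest adjusted p of a member was then 0.227 (limma), so 0 passed after adjustment. The median by role was then -0.27 for COPI, -0.16 for COPII, -0.24 for cargo receptors, -0.07 for Golgi matrix genes and -0.13 for SNAREs. By role, 4 of the 11 were COPI genes (Arf1, Copb1, Copb2, Copz1), 3 COPII genes (Sar1b, Sec13, Sec23b) and 4 cargo receptors (Kdelr1, Kdelr2, Tmed2, Tmed7), with none among Golgi matrix genes or SNAREs. Tmed2 had a log2 fold change of -0.54 (SE 0.14) and Kdelr2 one of -0.74 (SE 0.29) in that comparison. Gbf1 was not among the 11, with -0.23 (SE 0.11). Arf1, Copb1, Copz1, Kdelr1, Sec13 and Tmed7 are named because of these values. Without sham mouse 6, 10 of 16 ER chaperone and stress genes were also lower, as were 6 of the 10 epithelial markers listed, 4 of the 12 plasma cell markers and 3 of the 8 B cell markers.

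Sham mice 1 and 2 acted in the other direction. With both left out, 1 of 46 members was lower (Gbf1), 0 were higher, and 30 had a positive fold change, with a median of 0.05 for the members and 0.05 for all genes. Of all genes, 1.10% were lower and 3.50% higher in that comparison. With sham mice 1, 2 and 6 left out together, 2 members were lower, Gbf1 and Tmed2, against 2.12% of all genes, and the median was -0.06. Tmed2 then had a log2 fold change of -0.46 and Gbf1 one of -0.31.

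Few genes of the rest of the pathway were called. Of 94 further genes listed for ER-Golgi transport, 88 were tested. One was higher at an unadjusted p, Arfgap1, which encodes an activator of GTP hydrolysis on ARF1, at 35.4 ± 1.75 in sham controls and 43.2 ± 7.48 in stroke mice (SD, n = 6 each). Its log2 fold change was 0.27 (SE 0.12, adjusted p = 0.791, limma). One was lower, Trappc4, a subunit of the TRAPP tethering complexes, at 19.0 ± 4.25 and 14.8 ± 2.22 (SD, n = 6 each), with -0.34 (SE 0.15, adjusted p = 0.791, limma). Both counts stand beside the 4.42% higher and 1.69% lower of all genes. The median over the 88 was -0.04. Without sham mouse 6, 15 of the further genes were lower and 2 higher, against 9.18% and 7.39% of all genes in that comparison, 1 of the lower being a COG gene and 2 SNARE-related genes. The lists of COG tethering genes and of further SNARE genes had 0 calls among 8 and 17 genes tested in all 12 mice. Copz2, Sec31b, Sec16b, Tmed6 and Lman1l had low values and were not tested, and Stx10 was not matched.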

How the data were processed

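RNA-seq values of 12 libraries were used, 6 per group, each from 1 mouse. According to the methods and the submitters' processing notes, the authors trimmed reads with Trimmomatic 0.39, quantified them with kallisto 0.48.0 on GRCm38 and tested genes in sleuth 0.30.0 (R 4.1.2). The deposited values are a gene-level signal labelled as normalized TPM. The design assumed plain TPM, but column totals differ, so the values were treated as a signal. They hold no counts, so depth is unknown and no counting interval is given. From them, log2(value + 0.5) of the 12590 genes with at least 1 in every mouse was tested with limma 3.58.1 (R 4.3.3), without a block, with Benjamini-Hochberg adjustment. This p-value stands in for the sleuth Wald test, whose input was not used here. The test was checked on simulated data with independent genes and large changes, which does not cover small changes or shifts shared by many genes in a mouse. P-values measure the spread between mice.

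The members and lists were chosen with earlier results of these data known. Full statistics are given for members with an unadjusted p under 0.05 (Gbf1) and, leaving those aside, for the 2 members of each role with the smallest p. Coordinates come from GENCODE (GRCm38) and promoter windows from RefSeq (GRCm38.p6). Exons of 8 members overlap another tested gene (Copa, Copg2, Ergic1, Ergic2, Golga2, Gorasp1, Gorasp2 and Tmed7), and reads there may be shared. Alternatives were other pseudocounts, filters, scalings, a replicate block, sample weights, an intensity trend and leaving out each mouse. Leaving out sham mice 1 and 2, or 1, 2 and 6, was added after seeing the data.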

Additional observations from a re-analysis of the deposited data

Results flagged for a closer look

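On the log2(value + 0.5) scale, each gene's values within a group of 6 mice were examined for a mouse whose gap to its nearest neighbour took up an unusually large part of the group's range. The signals below are on the linear scale and the shares of the range on the log2 scale. Of 92 such groups, 8 held one, and chance gives about 1 in 20. In 5 of the 8 it was sham mouse 6, which was low. Arf1 was 38.3 there against 104 to 174 in the other sham controls, a gap of 0.66 of the log2 range. Tmed2 was 68.2 against 145 to 225 (0.631 of the range), and Kdelr1 was 8.20 against 16.2 to 22.7 (0.667). Lman2 was 32.8 against 40.5 to 45.9 (0.629), and Gosr2 was 12.3 against 23.8 to 31.8 (0.694). The other 3 were single low values elsewhere. Ergic2 was 78.3 in sham mouse 4 against 90.7 to 95.5 (0.743). Uso1 was 20.3 in stroke mouse 5 against 33.3 to 41.0 (0.703). Sec13 was 41.0 in stroke mouse 6 against 47.6 to 51.8 (0.645). On the linear scale only Ergic2 and Uso1 of these 8 passed the same threshold, with 0.724 and 0.628 of the range, so the low values of sham mouse 6 stood apart in this sense on the log2 scale only. On the linear scale 4 other groups passed, each with 1 high mouse, namely the stroke mice for Sec24c (0.656), Sec24d (0.630) and Golga2 (0.640) and the sham controls for Gosr1 (0.641).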

How the results depend on the processing

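For the 17 named genes, 377 of 408 values under 24 alternatives kept their direction and side of the unadjusted threshold, 12 fell short of it (all Gbf1), 14 newly passed it (11 of them without sham mouse 6) and 5 reversed. Kept values could still be near 0, as with sham mice 1 and 2 left out for Kdelr2 (-0.00805), Sar1b (-0.00777), Copb2 (-0.0173) and Copz1 (-0.0455). The reversed log2 fold changes were Sec22b at 0.0218 with equal totals and, with sham mice 1 and 2 left out, Arf1 at 0.15, Copb1 at 0.0743, Sec13 at 0.0357 and Tmed7 at 0.16. The count of lower members, 1 as reported, was 0 with equal totals, median-of-ratios scaling, quantile normalization or the replicate block, 2 with array weights or with sham mice 1, 2 and 6 left out, and from 0 to 11 when 1 mouse was left out. Over all genes, 557 higher became 1418 without a filter, 343 with equal totals and 866 with array weights, and ranged from 395 to 936 when 1 mouse was left out. The 213 lower became 350 without a filter, 73 with equal totals, 327 with quantile normalization, 404 with the block, 703 with array weights, 141 with sham mice 1 and 2 left out, and from 146 to 1162 when 1 mouse was left out. The cause of these shifts was not tested, except that more genes enter without a filter. The labels number the mice 1 to 6 in both groups. The deviations of same-numbered mice correlated at 0.0134 to 0.494, positive in all 6 pairs and over 0.1 in 4. Their mean was 0.218, against -0.0414 for other numbers, and 2 of 6 sham controls correlated best with their own number. The main test had no block because the methods name no pairing, and whether the numbers mark a shared batch was not tested. With the block, 770 genes were higher and 404 lower. The unadjusted p of Gbf1 was then 0.0666 (limma), and the lowest adjusted p of a member was 0.540 (limma). With read depth unknown, counting error in low genes such as Gorasp1 cannot be separated from variation between mice.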
